A study of Homo sapiens with 36 samples.

Results

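Expression of 8 genes of prostaglandin E2 synthesis, signalling and breakdown was followed across all 18 groups and 36 RNA-seq libraries of the series: PLA2G4A, PTGS1, PTGS2, PTGES, PTGES2, PTGES3, PTGER4 and HPGD, chosen by name, with earlier results of these data known. Each was matched by its symbol to 1 of the 60725 Ensembl genes in the expression tables. ER-Src cells are MCF-10A breast epithelial cells that carry v-Src fused to the ligand-binding domain of the oestrogen receptor, so that tamoxifen (TAM) switches on Src and transformation, and ethanol (ETH) served as vehicle. The second model, MDA-MB-231, is a mesenchymal-like cell line from triple-negative breast cancer.

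The 20 ER-Src libraries form 10 groups of 2, in which a control siRNA (Ctrli) or siRNAs against YAP (YAPi), TAZ (TAZi), STAT3 (STAT3i) or JUNB (JUNBi) were each combined with ETH or TAM. The induction protocol names AZD0530, a Src inhibitor, beside tamoxifen, and the study's methods name a short and a day-long treatment without saying which was used for these libraries. For the MDA-MB-231 cells the labels name neither TAM nor ETH. Their first set has 10 libraries in 5 groups (Ctrli, YAPi, TAZi, YAPi_TAZi, TEADi), and their second set has 6 libraries in 3 groups (Ctrli, JUNBi, STAT3i). The siRNAs were pools, each cell model is a single line, and nothing in the labels says whether the 2 libraries of a group came from separate cultures, so p-values measure the spread between these libraries, which may be technical.

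Prostaglandin synthesis begins when cytosolic phospholipase A2 (PLA2G4A) releases arachidonic acid from membranes. The cyclooxygenases PTGS1 (COX-1, usually constitutive) and PTGS2 (COX-2, usually inducible) turn it into prostaglandin H2, and the prostaglandin E synthases PTGES (inducible, microsomal), PTGES2 (membrane-associated) and PTGES3 (cytosolic, also the HSP90 co-chaperone p23) make prostaglandin E2. The product signals through receptors such as PTGER4 (EP4) and is inactivated by the dehydrogenase HPGD. In breast epithelium and breast cancer the pathway is best known through COX-2 and inflammation.

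The libraries were not all of one kind. Library totals ran from 1411304 to 19161700 expected counts. A set of 6 abundant RNAs without poly(A) tails took 9.43% to 11.7% of the counts in ER-Src libraries and 8.71% to 11.8% in the 8 knockdown libraries of the first MDA-MB-231 set, but 0.00278% to 0.00407% in the 2 Ctrli libraries of that set and 0.00363% to 0.0112% in the second set. The 8 knockdown libraries were also the shallowest, with 1411304 to 2784605 counts against 13456784 and 13534560 in their controls. In the first set, knockdown against Ctrli and library kind therefore cannot be told apart, and the knockdowns were also compared with each other. Every targeted gene was lower in its knockdown than in every control library, at 1.05% to 58.1% of the control mean. Both ends of that range (TEAD4 and TEAD1) come from TEADi in the first set, where library kind also differs. In ER-Src cells the range was 15.6% (STAT3 in TAM) to 45.4% (JUNB in ETH). The JUNB decrease in ETH was not called (DESeq2 adjusted p = 0.064). STAT3 in the second set received no adjusted p. The basal keratin KRT5 averaged 1030 to 2560 TPM in ER-Src groups and 0 to 5.75 TPM in the first MDA-MB-231 set, where vimentin (VIM) averaged 514 to 2560 TPM. The leukocyte marker PTPRC stayed at or below 0.045 TPM in every group mean.

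Both cyclooxygenases and PTGES carry most of the differences described here, so the 250 bases before their RefSeq start sites (GRCh38.p14) are given 5′ to 3′ on the strand of the gene, with matches to the TATA box TATAAA in capitals. PTGS1 has 2 start sites in that table. In the GENCODE annotation of GRCh38, all 8 are protein-coding genes. PTGS1 spans chr9:122370530-122395703, PTGES chr9:129738331-129753042 and PTGES2 chr9:128120693-128128462. PTGS2 (chr1:186671791-186680922) and PLA2G4A (chr1:186828949-186988981) lie near each other, PTGES3 spans chr12:56663341-56688408, PTGER4 chr5:40679915-40693735 and HPGD chr4:174490175-174523154. PTGS2 overlaps the antisense RNA PACERR, HPGD an unnamed gene and PTGER4 the gene TTC33 on the other strand, and the use of strand in counting is not given in the sources used here, so reads from those overlaps cannot be assigned. On the same strand PTGS1 overlaps an unnamed gene and PTGES3 the entry RN7SL809P. PTGES3 has 5 named pseudogenes and PTGER4 has 2, which could share their reads.

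PTGS1 upstream start, chr9:122370283-122370532, plus strand: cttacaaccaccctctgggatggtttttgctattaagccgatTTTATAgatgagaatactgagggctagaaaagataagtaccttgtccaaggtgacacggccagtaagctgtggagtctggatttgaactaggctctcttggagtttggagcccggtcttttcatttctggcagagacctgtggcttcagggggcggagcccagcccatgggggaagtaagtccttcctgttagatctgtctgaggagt
PTGS1 downstream start, chr9:122375052-122375301, plus strand: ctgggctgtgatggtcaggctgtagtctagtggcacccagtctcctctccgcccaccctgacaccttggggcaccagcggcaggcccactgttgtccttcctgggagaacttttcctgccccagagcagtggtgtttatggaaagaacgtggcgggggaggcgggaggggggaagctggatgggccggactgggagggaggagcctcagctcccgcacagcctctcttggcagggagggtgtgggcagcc
PTGS2, chr1:186680424-186680673, minus strand: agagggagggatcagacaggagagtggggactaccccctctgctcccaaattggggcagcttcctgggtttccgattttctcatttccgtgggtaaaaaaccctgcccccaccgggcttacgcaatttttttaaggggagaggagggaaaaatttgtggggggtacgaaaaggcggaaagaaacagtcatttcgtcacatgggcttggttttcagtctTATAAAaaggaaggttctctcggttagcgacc
PTGES, chr9:129753043-129753292, minus strand: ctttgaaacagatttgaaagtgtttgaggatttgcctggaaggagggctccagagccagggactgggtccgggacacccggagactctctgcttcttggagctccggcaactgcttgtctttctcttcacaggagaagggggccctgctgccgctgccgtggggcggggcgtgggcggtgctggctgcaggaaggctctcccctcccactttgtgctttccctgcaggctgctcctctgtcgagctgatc

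PTGS2 held a TATA box whose first base lay 32 bases before the start on its own strand. The only other match among the 12 start sites of the 8 genes was on the opposite strand of the upstream PTGS1 start, 208 bases before it. The letters TATAAA occurred on either strand in 11.5% of 35116 RefSeq promoters of 300 bases. None of the 12 held the AP-1 motif TGANTCA, the CRE motif TGACGTCA, the TEAD motif GGAATG or the STAT motif TTCNNNGAA on either strand. Those motifs occurred in 7.71%, 1.85%, 14.0% and 7.66% of all promoters.

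The genes fell into 3 abundance classes in ER-Src cells on the TPM scale, which is per length. PTGES3 (45.1 to 113.8 TPM), PTGES (47.2 to 81.3 TPM) and PTGES2 (12.1 to 33.9 TPM) were the most abundant over the 20 libraries. PLA2G4A was intermediate, at 2.36 to 10.8 TPM. PTGS2 (0.41 to 2.19 TPM), PTGS1 (0.27 to 2.19 TPM), HPGD (0.31 to 1.94 TPM) and PTGER4 (0.16 to 2.01 TPM) were the lowest. In Ctrli cells with ETH, PTGES3 and PTGES overlapped in level, as did each neighbouring pair in the order PTGS2, PTGER4, PTGS1 and HPGD, so neither order is beyond the spread of the 2 libraries.

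**Figure D1:**
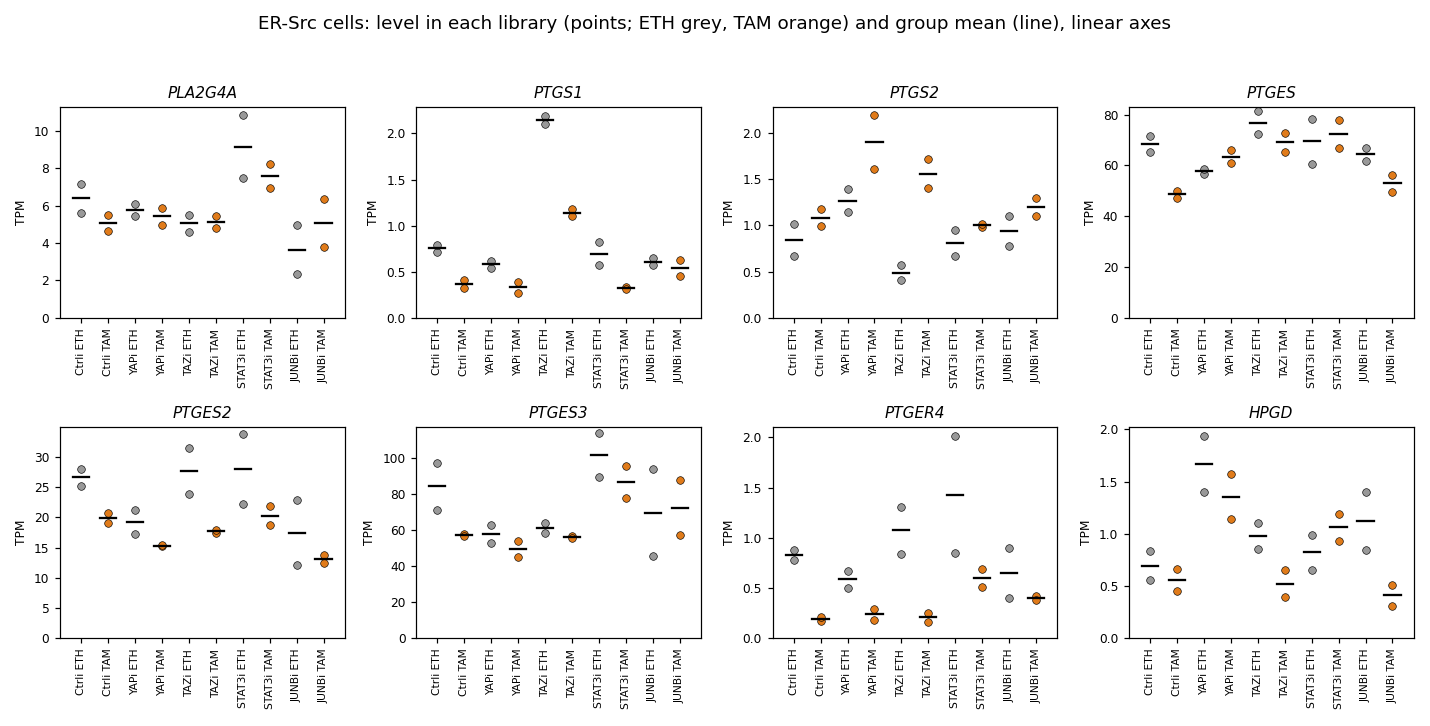
Level (TPM, vertical axis) of each gene in the 20 ER-Src libraries, with 2 points per siRNA and treatment (ETH grey, TAM orange) and a line at the group mean. PTGS1 stood at 1.1 to 2.19 TPM in the 4 TAZi libraries, above all other ER-Src libraries, and PTGER4 was at 0.17 and 0.21 TPM in Ctrli with TAM against 0.88 and 0.78 TPM with ETH.

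The first comparison asked how Src activation by TAM changed these genes in control cells. None of the 8 passed an adjusted p of 0.01 in DESeq2, where 6.11% of all 15934 tested genes did. At an unadjusted p under 0.05 there were 3 of 8 (PTGES, PTGES3 and PTGER4), and edgeR's quasi-likelihood test called 0. The median log2 fold change of the 8 was -0.27, against -0.01 over all tested genes.

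PTGER4, the EP4 receptor, had the widest gap. It measured 0.88 and 0.78 TPM with ETH and 0.17 and 0.21 TPM with TAM. The groups did not overlap, but the counts were small, at 34 and 48 against 9 and 10. Its log2 fold change was -1.52 ± 0.75 (SE, n = 2 and 2, DESeq2 adjusted p = 0.28). In such bulk RNA, fewer cells with the transcript and less of it per cell cannot be told apart. PTGES was at 71.7 and 65.3 TPM with ETH and 50.1 and 47.2 TPM with TAM. Those groups did not overlap either, and the log2 fold change of -0.31 ± 0.1 (SE) had a DESeq2 adjusted p of 0.037. PTGS2 had a log2 fold change of 0.66 (95% interval -0.26 to 1.59) and was not called. Its interval included 0 and reached further above 0 than below it.

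Knockdown of YAP, a transcriptional co-activator, was compared with Ctrli within each treatment. In TAM 1 of the 8 genes was called, where 10.9% of all tested genes were, and in ETH 1 of 8, where 11.4% were. Both were higher in the knockdown, PTGES in TAM and HPGD in ETH.

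HPGD, which inactivates prostaglandin E2, was at 1.94 and 1.4 TPM in YAPi with ETH and at 0.56 and 0.83 TPM in Ctrli with ETH. Every YAPi library was above every control library. HPGD rose 3.38-fold (log2 1.76 ± 0.52 SE, n = 2 and 2, DESeq2 adjusted p = 0.0071), a call that was lost with offsets for effective length (adjusted p = 0.061) and without any 1 of the 4 libraries. In TAM it was at 1.57 and 1.14 TPM in YAPi and 0.66 and 0.45 TPM in Ctrli. The groups again did not overlap, and the log2 fold change of 1.64 ± 0.61 (SE) had a DESeq2 adjusted p of 0.048.

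PTGES was at 65.9 and 60.8 TPM in YAPi with TAM and at 50.1 and 47.2 TPM in Ctrli with TAM. The knockdown libraries were the higher ones, by 1.29-fold (log2 0.36 ± 0.11 SE, DESeq2 adjusted p = 0.0079), and edgeR's quasi-likelihood test gave an adjusted p of 0.024. The call was also lost without any 1 of the 4 libraries. In ETH the order was turned, with 56.6 and 58.7 TPM in YAPi against 71.7 and 65.3 TPM in Ctrli. The interaction of YAPi with TAM for PTGES was 0.62 on the log2 scale, with a DESeq2 adjusted p of 0.014, so it was not called. PTGS2, the inducible cyclooxygenase, was at 1.61 and 2.19 TPM in YAPi with TAM and 0.99 and 1.18 TPM in Ctrli with TAM. Its libraries did not overlap, and the log2 fold change of 1.06 ± 0.36 (SE) had a DESeq2 adjusted p of 0.026.

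TAZ, encoded by WWTR1, is the paralog of YAP. In TAM TAZi called 1 of the 8 genes, PTGES, where 3.53% of all tested genes were called, and in ETH 1 of 8, PTGS1, where 5.53% were.

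PTGS1, the constitutive cyclooxygenase, was at 2.1 and 2.19 TPM in TAZi with ETH and at 0.72 and 0.79 TPM in Ctrli with ETH. The groups were far apart relative to the spread within each. PTGS1 rose 2.84-fold (log2 1.51 ± 0.34 SE, n = 2 and 2, DESeq2 adjusted p = 0.00042), and the call was lost when any 1 of the 4 libraries was left out. In TAM it was at 1.1 and 1.18 TPM in TAZi and 0.41 and 0.32 TPM in Ctrli, with a log2 fold change of 1.49 ± 0.43 (SE) and a DESeq2 adjusted p of 0.014. PTGS1 had a smaller adjusted p of 0.0085 in edgeR's quasi-likelihood test for that comparison. PTGES was at 65.3 and 72.9 TPM in TAZi with TAM, above both controls, and rose 1.28-fold (log2 0.36 ± 0.1 SE, DESeq2 adjusted p = 0.0082). With edgeR's quasi-likelihood test the adjusted p was 0.027, and the call was lost without any 1 of the 4 libraries.

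The knockdowns of YAP and TAZ were then compared with each other. PTGS1 was the 1 gene of 8 called in TAM, where 6.32% of all tested genes were, and the 1 of 8 called in ETH, where 4.15% were. In TAM it measured 0.39 and 0.27 TPM in YAPi against 1.1 and 1.18 TPM in TAZi, and it was 3.73-fold lower in YAPi (log2 -1.9 ± 0.39 SE, DESeq2 adjusted p = 5.5e-05). In ETH it measured 0.54 and 0.62 TPM in YAPi against 2.1 and 2.19 TPM in TAZi, and it was 3.32-fold lower (log2 -1.73 ± 0.34 SE, DESeq2 adjusted p = 3.6e-05). The call was lost in ETH without any 1 of the 4 libraries, and in TAM without YAPi replicate 2 or either TAZi replicate. HPGD leaned the other way, with log2 differences of 1.64 ± 0.54 (SE) in TAM and 1.39 ± 0.5 (SE) in ETH and DESeq2 adjusted p-values of 0.03 and 0.072. PTGS2 in ETH was at 1.14 and 1.39 TPM in YAPi and 0.57 and 0.41 TPM in TAZi, a log2 difference of 1.04 ± 0.45 (SE) with a DESeq2 adjusted p of 0.17.

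**Figure D2:**
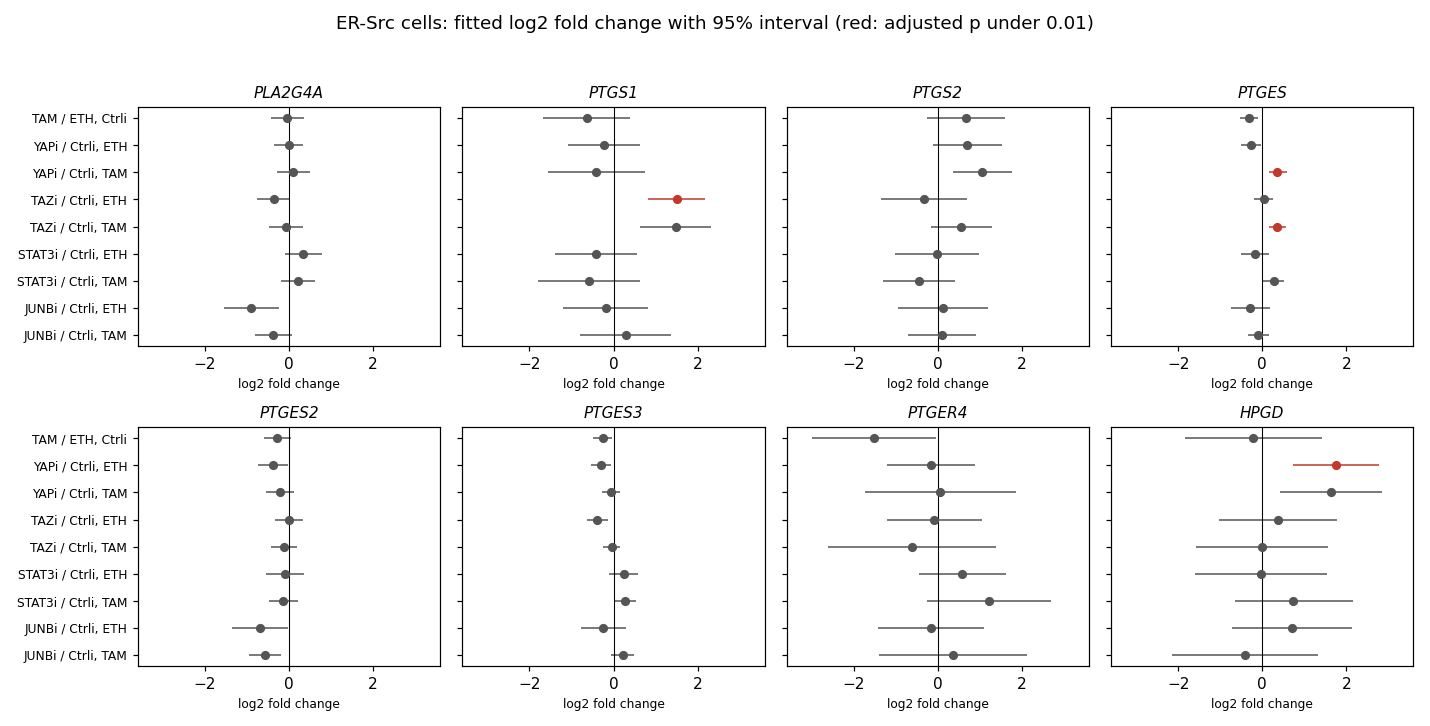
Fitted log2 fold change (horizontal axis) of each gene with its 95% interval for TAM against ETH and for each knockdown against Ctrli in ER-Src cells, with calls at an adjusted p under 0.01 in red. Only 4 of the 64 knockdown values are called, and each lies to the right of 0.

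STAT3 and JUNB are transcription factors of inflammatory signalling. Their knockdowns called none of the 8 genes in ER-Src cells. With STAT3i the background was 8.09% of tested genes in TAM and 0.201% in ETH, and with JUNBi it was 6.71% in TAM and 2.76% in ETH. At an unadjusted p under 0.05 there were 2 and 0 of the 8 genes for STAT3i and 1 and 2 for JUNBi, in TAM and ETH, and edgeR's quasi-likelihood test called 0 in each. The log2 fold changes ran from -0.58 to 1.21 for STAT3i in TAM, from -0.41 to 0.58 for STAT3i in ETH, from -0.57 to 0.36 for JUNBi in TAM and from -0.9 to 0.72 for JUNBi in ETH. PTGER4 was at 0.51 and 0.69 TPM in STAT3i with TAM and 0.17 and 0.21 TPM in Ctrli with TAM. The groups did not overlap, and the log2 fold change of 1.21 ± 0.76 (SE) had a DESeq2 adjusted p of 0.34. Set directly against each other in TAM, STAT3i and JUNBi again gave 0 of 8 calls in DESeq2 and 0 in edgeR, with 3 at an unadjusted p under 0.05, beside 5.98% of all tested genes. HPGD was at 1.19 and 0.93 TPM in STAT3i with TAM and 0.51 and 0.31 TPM in JUNBi with TAM, a log2 difference of 1.17 ± 0.67 (SE) with a DESeq2 adjusted p of 0.37. Interaction tests, which compare a knockdown's effect between the treatments, called none of the 8 genes in DESeq2 or edgeR, and 1, 2, 1 and 0 of them had an unadjusted p under 0.05 for YAPi, TAZi, STAT3i and JUNBi. The background was 0.496% of tested genes for YAPi, 1.64% for TAZi, 1.57% for STAT3i and 0.287% for JUNBi. DESeq2's filter on low counts left an adjusted p for only 3 of the 8 genes in the TAZi interaction, and for 6 of 8 with JUNBi against Ctrli in TAM.

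Among 41 other genes of the pathway, 2 were called higher and 0 lower by TAM in control cells, in DESeq2 as in edgeR. Both encode cytosolic phospholipases of the PLA2G4 family. DESeq2 called 6.11% of all tested genes in this comparison, where 23 of the 41 kept an adjusted p. In the comparisons of each knockdown with Ctrli in ER-Src cells, only 17 to 23 of the 41 kept one. PLA2G4E was at 0.04 and 0.01 TPM with ETH and 1.72 and 1.04 TPM with TAM, a log2 fold change of 6.0 ± 0.71 (SE, DESeq2 adjusted p = 2.9e-15). PLA2G4E overlaps the antisense gene PLA2G4E-AS1. PLA2G4D had a log2 fold change of 4.67 ± 1.14 (SE, DESeq2 adjusted p = 0.00098) from counts of 1 and 2 with ETH and 33 and 20 with TAM.

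With YAPi in TAM, 6 of the 41 genes were called higher and 0 lower, and edgeR's quasi-likelihood test called 3 of the 41. Only 21 of the 41 kept a DESeq2 adjusted p in that comparison. The share called in both directions was 10.9% of all genes that kept one. PLA2G4E measured 8.26 and 6.49 TPM there, 2.31 ± 0.22 (SE) above control on the log2 scale (DESeq2 adjusted p = 3.6e-23). SLCO2A1, the prostaglandin transporter, was at 1.34 and 0.7 TPM in YAPi against 0.16 and 0.12 TPM in Ctrli, a log2 fold change of 2.62 ± 0.58 (SE, DESeq2 adjusted p = 0.00015). PLA2G4F, another cytosolic phospholipase, had a log2 fold change of 4.12 from counts of 28 and 65 against 3 and 0, and ALOX15B, a lipoxygenase, one of 0.67. In ETH only PLA2G4F was called with YAPi, beside 11.4% of all tested genes, at 0.97 and 0.99 TPM against 0.05 and 0.07 TPM. With STAT3i in TAM 1 gene was called higher and 2 lower (3 called in edgeR), beside 8.09% of all tested genes. PLA2G4E, at 0.13 and 0.05 TPM with STAT3i, was 4.33 lower on the log2 scale (log2 -4.33 ± 0.49 SE, DESeq2 adjusted p = 8.7e-17). With JUNBi in TAM PLA2G4E was the 1 gene called in DESeq2, where edgeR called 2, at 0.49 and 0.43 TPM (log2 -1.85 ± 0.36 SE, DESeq2 adjusted p = 1.6e-05). The share of all tested genes called with JUNBi in TAM was 6.71%.

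PTGFR, the receptor for prostaglandin F2α, was called higher with TAZi in both treatments. It measured 2.61 and 3.01 TPM in TAZi against 0.77 and 0.94 TPM in Ctrli with TAM, and 4.57 and 3.47 TPM against 1.67 and 1.39 TPM with ETH. AKR1C3, a prostaglandin F synthase, was the other gene of the list called by DESeq2 with TAZi in TAM, where edgeR called 1, at 24.8 and 26.2 TPM against 6.27 and 4.45 TPM. It shares reads with close paralogs, so its value is uncertain. With TAZi in ETH PTGFR was the 1 gene called of the 41, and 0 were called with STAT3i or JUNBi in ETH in DESeq2 or edgeR, where 1 and 3 had an unadjusted p under 0.05. The shares of all tested genes called with TAZi were 3.53% in TAM and 5.53% in ETH. With STAT3i and JUNBi in ETH they were 0.201% and 2.76%. Between YAPi and TAZi in TAM 5 of the 41 were higher and 2 lower in DESeq2, and edgeR called 3. Only 22 of the 41 kept a DESeq2 adjusted p in that comparison, where 6.32% of all tested genes were called. ANXA1, an inhibitor of phospholipase A2, was the 1 gene of the list with a called YAPi interaction in DESeq2 (0.74 on the log2 scale, DESeq2 adjusted p = 0.0003), and edgeR called 0 there. For that interaction 24 of the 41 kept a DESeq2 adjusted p, and 0.496% of all tested genes were called.

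In MDA-MB-231 cells the levels differed from those of ER-Src cells, and no test was made across the separately normalized sets. PTGES2 was at 114 to 176.8 TPM in the second set against at most 33.9 TPM in ER-Src cells. In the first set PTGES2 was at 136.1 and 105.2 TPM in the controls. It was at 25.99 to 46.04 TPM in the knockdown libraries, which overlapped ER-Src cells. Those knockdown libraries had a share of RNAs without poly(A) tails like that of ER-Src libraries, and the part of library kind was not tested. PTGS2 was at 4.91 and 5.7 TPM in the first-set controls and at 1.49 and 1.52 TPM in the second-set controls, although both were labelled Ctrli. PTGES was likewise unlike between them, at 131.9 and 121.7 TPM against 32.2 and 25.8 TPM.

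**Figure D3:**
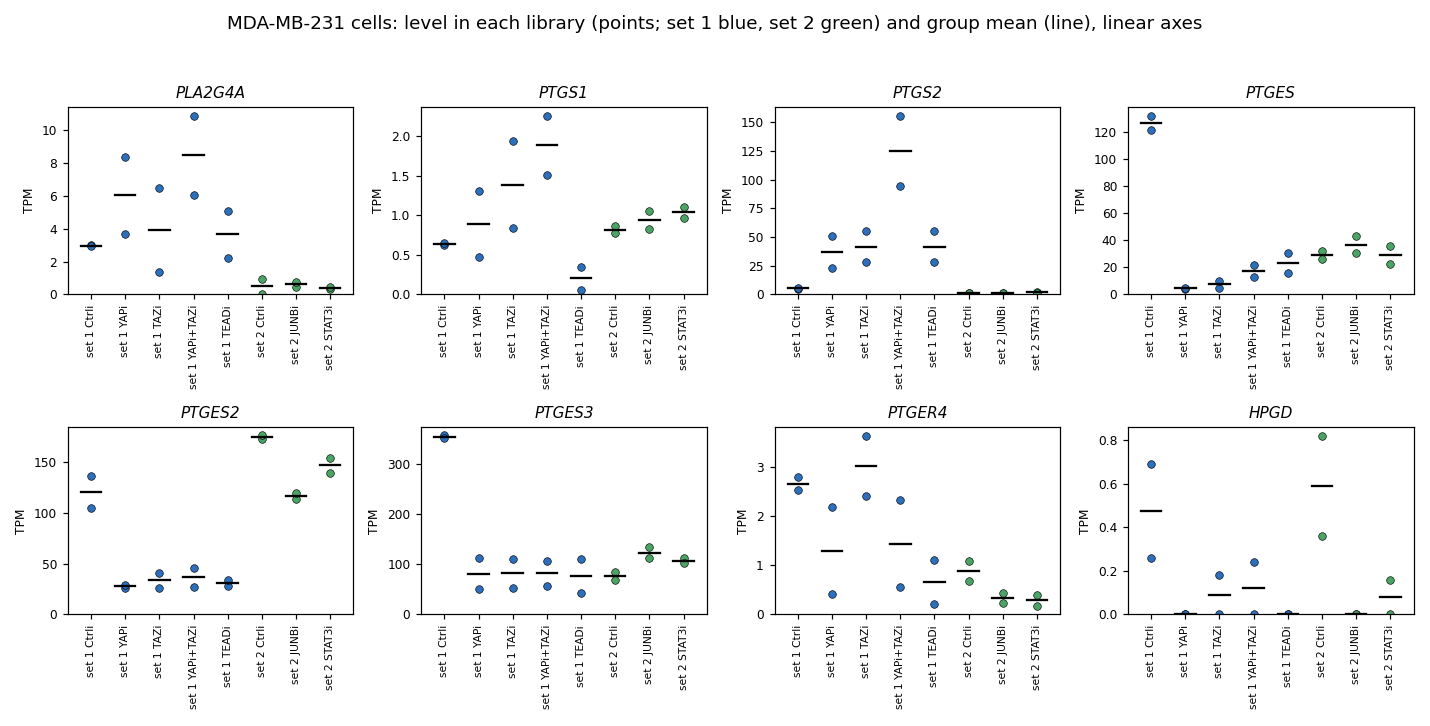
Level (TPM, vertical axis) of each gene in the 16 MDA-MB-231 libraries, with 2 points per group (first set blue, second set green) and a line at the group mean. PTGS2 lay between 23.1 and 155.7 TPM in the 8 first-set knockdown libraries and between 1.12 and 5.7 TPM in all other MDA-MB-231 libraries.

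Against the first-set controls, YAPi called 4 of the 8 genes (24.0% of all tested genes), TAZi 5 (32.3%), YAPi_TAZi 5 (35.5%) and TEADi 4 (28.1%). PTGS2, PTGES, PTGES3 and PLA2G4A were called in all 4 comparisons, and PTGS1 in TAZi and YAPi_TAZi. Of the 41 other pathway genes, 24, 26, 25 and 21 kept an adjusted p. Among those, 0, 3, 6 and 3 were called higher and 5, 6, 5 and 3 lower. These differences run along the change of library kind described above, whose part was not tested.

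PTGS2 was at 23.1 and 50.7 TPM in YAPi, 28.2 and 54.9 TPM in TAZi, 94.4 and 155.7 TPM in YAPi_TAZi and 28.2 and 55.2 TPM in TEADi. All 8 libraries were above both controls. The log2 fold changes were 4.03 ± 0.24, 4.15 ± 0.22, 5.66 ± 0.16 and 4.16 ± 0.23 (SE, n = 2 and 2 each) with DESeq2 adjusted p-values from 4.6e-264 to 3.6e-63. All 4 calls held against the pooled controls of the 2 sets. The second-set controls were likewise low in RNAs without poly(A) tails, so pooling cannot separate knockdown from library kind. PTGES was lower, at 4.2 and 4.55 TPM in YAPi, 4.4 and 10.1 TPM in TAZi, 12.9 and 21.8 TPM in YAPi_TAZi and 16.0 and 30.8 TPM in TEADi. Its log2 fold changes were -3.25 ± 0.27, -2.68 ± 0.19, -1.46 ± 0.14 and -0.89 ± 0.17 (SE). These come from counts normalized within the set, and on the TPM scale the gap to the controls was wider than the fitted change for PTGES and narrower for PTGS2 in all 4 knockdowns. With the controls of both sets the PTGES calls in YAPi_TAZi (DESeq2 adjusted p = 0.14) and TEADi (DESeq2 adjusted p = 0.56) were lost, and that in TEADi was also lost without either control library (DESeq2 adjusted p = 0.04 and 0.018).

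PTGES3 had log2 fold changes of -0.74 to -0.98 and PLA2G4A of 1.67 to 2.62 over the 4 knockdowns. PLA2G4A libraries of TAZi and TEADi lay on both sides of the controls in TPM, and above them in normalized count. None of those 8 values was called with the controls of both sets. Without either control library the calls were lost for PTGES3 in YAPi and for PLA2G4A in TAZi and TEADi, and PLA2G4A also lost its call in both knockdowns without replicate 2. PTGS1 had log2 fold changes of 2.46 ± 0.45 in TAZi and 2.81 ± 0.43 (SE) in YAPi_TAZi, from counts of 14 and 24 and of 14 and 23, and neither was called with the controls of both sets. The TAZi call was lost without any 1 of its 4 libraries (DESeq2 adjusted p = 0.015 to 0.11) and the YAPi_TAZi call without either control or replicate 2 (DESeq2 adjusted p = 0.024 to 0.049). PTGS1 in YAPi had a log2 fold change of 1.72 ± 0.82 (SE, DESeq2 adjusted p = 0.096). PTGER4 had values of -1.02 ± 0.66 in YAPi_TAZi and -1.33 ± 0.89 (SE) in TEADi from 2 to 7 counts, with DESeq2 adjusted p-values of 0.21 and 0.25. HPGD had 0 counts in 6 of the 8 knockdown libraries and 1 count in the other 2, against 2 and 10 counts in the controls, so no fold is given.

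Comparing each knockdown with the mean of the other 3 keeps the library kind the same on both sides. That mean was taken on the log scale, so the fitted folds are not ratios of mean counts. These fits held the replicate number as a block, since the 4 replicate 2 libraries deviated together (r = 0.802 to 0.824 across genes). Gene length minus effective length was 48.0 bases in the replicate 1 libraries and 74.56 to 74.57 bases in the replicate 2 libraries. YAPi called 2 of the 8 genes (11.0% of all tested genes), TAZi 2 (10.7%), YAPi_TAZi 2 (10.5%) and TEADi 2 (11.6%), and in each case they were PTGS2 and PTGES. Only 5, 5, 6 and 6 of the 8 kept an adjusted p here, while the shares of all genes are of those that did. The 4 comparisons share libraries and are not independent of each other.

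PTGS2 stood out in the combined knockdown. Its normalized counts were 1758 and 1957 in YAPi_TAZi, 489 and 695 in YAPi, 611 and 695 in TAZi and 575 and 732 in TEADi. Both YAPi_TAZi libraries were above all 6 others. The fitted level in YAPi_TAZi was 2.94-fold above the mean of the other knockdowns (log2 1.56 ± 0.09 SE, DESeq2 adjusted p = 1.6e-66). PTGS2 was lower in each of the other knockdowns against the rest, with log2 differences of -0.65 ± 0.1 in YAPi, -0.45 ± 0.09 in TAZi and -0.45 ± 0.1 in TEADi (SE), though there the libraries overlapped, and the mean of the rest includes YAPi_TAZi. The TAZi call was lost without TAZi replicate 2 (DESeq2 adjusted p = 0.14), and the TEADi call without either TEADi replicate (DESeq2 adjusted p = 0.035 and 0.032).

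PTGES followed another order. Its normalized counts were 50.0 and 31.4 in YAPi, 54.4 and 64.8 in TAZi, 134.6 and 147.4 in YAPi_TAZi and 202.6 and 214.2 in TEADi. The 4 groups did not overlap in normalized count. In TPM, YAPi overlapped TAZi, and YAPi_TAZi overlapped TEADi. TEADi was 2.98-fold above the mean of the others (log2 1.57 ± 0.22 SE, DESeq2 adjusted p = 1.7e-11) and YAPi 3.0-fold below it (log2 -1.59 ± 0.27 SE, DESeq2 adjusted p = 9e-08), the latter with a DESeq2 adjusted p of 0.031 without YAPi replicate 2. TAZi was lower by log2 -0.81 ± 0.24 (SE, DESeq2 adjusted p = 0.009) and YAPi_TAZi higher by 0.82 ± 0.22 (SE, DESeq2 adjusted p = 0.0032), and both calls were lost with offsets for effective length (adjusted p = 0.18 and 0.13) and without most single libraries. PTGS1 was lowest in TEADi, with counts of 1 and 4 against 10 to 24 in the other knockdown libraries, a log2 difference of -2.57 ± 0.81 (SE, DESeq2 adjusted p = 0.012). PTGS1 in YAPi_TAZi was 1.49 ± 0.57 (SE) above the rest on the log2 scale, with a DESeq2 adjusted p of 0.055.

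**Figure D4:**
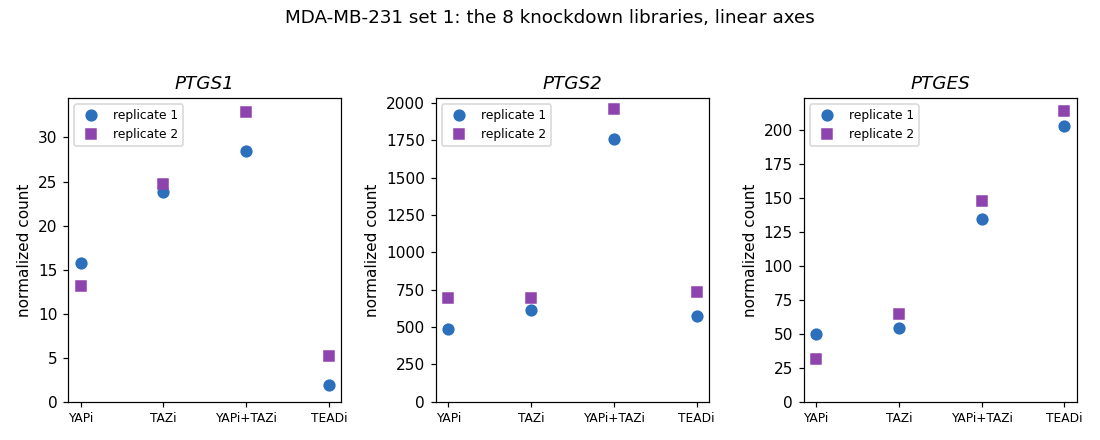
Normalized count (vertical axis, within the first MDA-MB-231 set) of PTGS1, PTGS2 and PTGES in the 8 knockdown libraries, with circles for replicate 1 and squares for replicate 2. PTGS2 is highest in YAPi_TAZi (1758 and 1957), and PTGES rises from YAPi (50.0 and 31.4) to TEADi (202.6 and 214.2).

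Of the 41 other pathway genes, 2 were called lower and 0 higher in YAPi against the other knockdowns, 1 higher in TAZi, 1 lower in YAPi_TAZi, and 2 higher and 1 lower in TEADi. Only 12, 12, 12 and 13 of the 41 kept an adjusted p in these comparisons. The shares of all tested genes called were 11.0%, 10.7%, 10.5% and 11.6%. ANXA1 was called in YAPi, YAPi_TAZi and TEADi, with log2 differences of -0.34, -0.84 and 1.23. In YAPi the ANXA1 libraries overlapped the rest. Its mean normalized count was 1300 in YAPi, 997 in YAPi_TAZi, 1490 in TAZi and 2920 in TEADi. AKR1B1, an aldose reductase that can make prostaglandin F2α, was called in YAPi (-0.84) and in TEADi (0.91).

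In the second MDA-MB-231 set, JUNBi called 1 of the 8 genes (3.99% of all tested genes) and STAT3i 0 (0.237%) in DESeq2, with 1 of 8 at an unadjusted p under 0.05 for STAT3i and 0 called by edgeR. Only 3 of the 8 kept an adjusted p in each of these comparisons after DESeq2's filter on low counts. The called gene was PTGES2, at 114 and 119.6 TPM in JUNBi and 172.7 and 176.8 TPM in Ctrli. Both knockdown libraries were below both controls, and the fitted decrease was 1.74-fold (log2 -0.8 ± 0.19 SE, DESeq2 adjusted p = 0.0013). With edgeR's quasi-likelihood test the adjusted p was 0.12, and with the controls of both sets the log2 fold change was -0.17. The call was lost without Ctrli replicate 4 or either JUNBi replicate. HPGD had 2 and 11 counts in the controls, 0 and 0 in JUNBi, and 0 and 2 in STAT3i. Of the 41 other pathway genes only 8 and 7 kept a DESeq2 adjusted p with JUNBi and STAT3i, and 0 were called in either comparison by DESeq2 or edgeR, with 3 and 0 at an unadjusted p under 0.05 for JUNBi and STAT3i.

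Over the 10 ER-Src groups, 5 of the 8 genes met the limits for a search of like patterns, which were a mean of at least 1 TPM in some group and a range of at least 1 on the log2(TPM + 1) scale. PTGS1 was most like BICDL1 (Pearson r = 0.943 over 10 group means), ISOC2 (r = 0.912) and SULT1E1 (r = 0.903). The gene most like PTGES2 was DVL1 (r = 0.981), that most like PTGES3 was MTIF2 (r = 0.992), and that most like PTGER4 was CDS1 (r = 0.936). PLA2G4A was most like an unnamed gene (r = 0.936). These are the highest of 4325 candidate genes, the TPM values of a library share its composition, and the r values are a description. With a pseudocount of 0.1, 7 of the 8 genes met the limits. The gene most like PTGS1, PTGES2 and PTGES3 stayed the same, while PTGER4 was then most like PGP (r = 0.98) and PLA2G4A most like GINS3 (r = 0.941).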

How the data were processed

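Total RNA of 36 samples from 2 cell models was made into libraries with the TruSeq Ribo Profile kit, per the labels. The authors trimmed the reads, aligned them to the GENCODE transcriptome with STAR and quantified genes with RSEM, and the submitters' processing notes name hg38. The deposited tables hold expected counts, which need not be whole, and TPM values per gene and library. Lengths and effective lengths were also read. The columns of every table belong to 1 library, and groups were taken from the labels.

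Of 60725 Ensembl identifiers, 93.1% were paired with a symbol, and 649 numeric identifiers that name no gene were left out. Expected counts were rounded and tested with DESeq2 1.42.0 at its default settings, separately for each comparison on the libraries of the groups compared (adjusted p by Benjamini-Hochberg over all genes tested, threshold 0.01). The interactions used 4 groups each, and comparisons among the first-set MDA-MB-231 knockdowns held the replicate number as a block. Intervals are 1.96 standard errors. edgeR 4.0.16, other size factors, a minimum mean count of 10, length offsets, 1 fit over all groups, the replicate block, the controls of both sets and leaving out each library were the alternatives. Both tools' fits were tested on simulated counts with known changes, where the interaction test recovered far fewer moderate changes than the comparisons of 2 groups, so an interaction that was not called says little. Fold changes are printed for genes called and for genes whose groups did not overlap by 2-fold or more, and named pathway genes are at most 4 per comparison by size of change. The PTGES interaction, the TATA box, and uncalled values whose groups overlapped or differed by under 2-fold were chosen after the values were seen. The 8 genes, the pathway list and the tests were chosen with earlier results of these data known.

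No 2 libraries of a group agreed within counting noise (chi-square per gene 2.18 to 51.6).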

Additional observations from a re-analysis of the deposited data

Results flagged for a closer look

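In 4 cases every knockdown library lay, in normalized count, on one side of the ER-Src controls in TAM and on the other side in ETH. The differences on the log2 scale (TAM minus ETH effect) were 0.62 for PTGES with YAPi, 0.42 for PTGES with STAT3i, 0.87 for PTGS2 with TAZi and -1.16 for HPGD with JUNBi. The DESeq2 interaction test gave adjusted p-values of 0.014 for PTGES with YAPi and 0.58 for PTGES with STAT3i, so neither was called. HPGD with JUNBi was not called either, and PTGS2 with TAZi received no adjusted p after DESeq2's filter on low counts. In TPM the libraries overlapped for PTGES with STAT3i in ETH and for HPGD with JUNBi in TAM. Some margins in ETH were very narrow. For PTGS2 the nearest libraries were at 45.9 (TAZi) and 46.1 (Ctrli) normalized counts. For PTGES they were at 3196.8 (STAT3i) and 3202.2 (Ctrli).

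In 7 cases the knockdown libraries lay on opposite sides of their controls, in normalized count, in MDA-MB-231 and ER-Src cells. In TPM the MDA-MB-231 libraries overlapped their controls for PTGS1 with YAPi and PLA2G4A with TAZi, as did PTGS1 with YAPi in ER-Src cells with TAM. This difference between cell lines was not tested, and in the first MDA-MB-231 set it cannot be told apart from library kind. PTGS1 with YAPi had a log2 fold change of 1.72 in MDA-MB-231 against -0.23 in ETH and -0.41 in TAM. PTGS2 with TAZi had 4.15 against -0.33 in ETH, and PLA2G4A with TAZi had 1.67 against -0.37 in ETH. The ER-Src margin in ETH was very narrow for PTGS2 with TAZi, as given above. It was also narrow for PTGS1 with YAPi, at 59.4 against 60.0 normalized counts in the nearest libraries. PTGES had -3.25 with YAPi and -2.68 with TAZi against 0.36 for both in TAM. PTGER4 with STAT3i had -0.78 in the second MDA-MB-231 set against 1.21 in ER-Src cells with TAM. HPGD was left out in MDA-MB-231 cells, where all knockdown libraries and 1 control library of each set were at or under 3 counts. These are 11 of the 96 pairs of effects examined, with 2 libraries a group.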

How the results depend on the processing

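The number of the 8 genes called at an adjusted p of 0.01 was recomputed under every alternative. In ER-Src TAM the 1 call for YAPi became 0 with edgeR, 0 with a minimum mean count of 10 and 2 in 1 fit over all groups, and the 1 call for TAZi became 0 with length offsets. The 1 call for YAPi in ETH became 0 with length offsets. JUNBi went from 0 to 1 in TAM with length offsets and in ETH with 1 fit over all groups. The YAPi interaction went from 0 to 1 with TMM factors, and YAPi against TAZi in TAM from 1 to 2 in 1 fit over all groups. With the controls of both sets, YAPi and TAZi in the first MDA-MB-231 set had 2 calls, YAPi_TAZi and TEADi had 1, and JUNBi in the second set had 0, as it did with edgeR. Among the first-set knockdowns, TAZi had 1 call with TMM factors, with a minimum mean count of 10 and with length offsets, and YAPi_TAZi and TEADi had 1 with length offsets. PTGER4 in YAPi_TAZi against the first-set controls turned from -1.02 to 0.27 on the log2 scale with length offsets, neither being called. The cause of these shifts was not tested.

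With the replicate block, the calls for YAPi and TAZi in ER-Src cells against Ctrli became 0 in both treatments, the YAPi interaction 1 and TAZi in the first MDA-MB-231 set 3, and no other count of the 8 genes moved by over 1.5 times. Over all genes the block moved many counts by more than that, for example from 1552 to 775 for YAPi in TAM and from 475 to 178 for TAZi in TAM. Only 2 pairs exist and the labels give the numbers no meaning, with correlations of deviations from -0.054 to 0.506 in ER-Src cells. Without the block, TAZi among the first-set knockdowns had 0 calls and YAPi_TAZi and TEADi 1. No block was possible in the second set, whose controls are numbered apart from the knockdowns.

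Leaving out single libraries, where an arm of 1 library is taken to vary like the other, gave 0 calls for YAPi and for TAZi against Ctrli in either ER-Src treatment and for YAPi against TAZi in ETH. The range was 0 to 1 for YAPi against TAZi in TAM, the YAPi and JUNBi interactions and JUNBi in the second set, 0 to 2 for JUNBi in ETH and TAZi among the first-set knockdowns, and 1 to 2 for the other 3 of these. Against the first-set controls it was 3 to 4 for TAZi and 2 to 4 for TEADi. The count over all genes, and so the share printed beside the 8 genes, moved by over 1.5 times in 113 of 136 values with 1 library left out, such as from 1552 to 431 for YAPi in TAM without YAPi replicate 2 and from 11 to 336 for STAT3i in the second set without Ctrli replicate 3. It did so in 53 of 156 other settings, down to 0 of 287 for JUNBi and 0 of 11 for STAT3i in the second set, 1 of 420 for JUNBi and 0 of 37 for STAT3i in ER-Src ETH, all with edgeR, and up to 1729 of 420 for JUNBi in ETH with 1 fit over all groups. TPM rescaled without the 6 RNAs moved 79 of 144 group means by more than 1 SD.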

Other observations

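Among the 3 prostaglandin E synthases, PTGES made up 30.9% to 50.1% of their summed TPM in ER-Src libraries. It made up 21.1% in both first-set MDA-MB-231 controls, 3.13% to 6.27% in the YAPi and TAZi libraries of that set, 12.5% and 13.4% in YAPi_TAZi and 17.7% and 18.5% in TEADi, and 8.07% to 14.6% in the second set. The ratio of PTGS2 to PTGS1 was 0.271 and 0.187 in TAZi ER-Src cells with ETH, the lowest of the 36 libraries, and 4.13 and 8.11 in YAPi with TAM, the highest of the ER-Src libraries.

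PTGER4 was lower with TAM than with ETH in group means under all 5 siRNAs in ER-Src cells, at 0.19 against 0.83 TPM in Ctrli, 0.235 against 0.585 in YAPi, 0.205 against 1.07 in TAZi, 0.6 against 1.43 in STAT3i and 0.4 against 0.65 in JUNBi. The JUNBi libraries overlapped in TPM but not in normalized count, and only the Ctrli difference was tested.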
